A study of Mus musculus with 5 samples.

Results

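The proteasome is the large protease that degrades proteins tagged with ubiquitin, and its constitutive subunit genes are described here across 5 single-cell RNA libraries of T cells. Members were all genes whose symbol starts with Psma, Psmb, Psmc, Psmd or Psme followed by a digit, leaving out the immunoproteasome genes Psmb8, Psmb9 and Psmb10 and symbols of pseudogenes. That gave 42 of 32285 genes. By part of the particle they were 7 genes of the 20S alpha ring, 7 of the 20S beta ring, 6 ATPases and 11 other subunits of the 19S particle, 3 genes of the PA28 activator, and Psme4, the PA200 activator. The other members were 3 chaperones of 19S assembly (Psmd5, Psmd9 and Psmd10), the tissue-specific core genes Psma8 and Psmb11, and Psmc3ip and Psme2b. Psmc3ip encodes a meiotic recombination protein and is no proteasome subunit, and Psme2b is a near copy of Psme2, so its counts are uncertain. Psma8, of the testis, and Psmb11, of the thymic cortex, had 41 and 32 UMIs in all T cells together and took part in no comparison.

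The labels name a naive OT-II mouse, of a strain with a transgenic T-cell receptor for an ovalbumin peptide, as the source of the CD4 T cells, which were taken from its spleen by negative selection. The study profiled them alone (OT-II), or after a night with apCAFs (antigen-presenting cancer-associated fibroblasts), which were sorted from pancreatic tumors of mice. The apCAFs came from tumors of 2 clones, sKPC or rKPC, and each coculture received DMSO or OVA, so that the labels give 5 samples with 1 per condition. The deposited counts are 2 aggregated matrices, here G and H. G holds 3 barcode suffixes and H holds 2, whereas the labels tie 2 samples to G and 3 to H. No suffix could therefore be tied to a condition, and the 5 libraries are named by matrix and suffix, as Ga, Gb and Gc (matrix G) and Ha and Hb (matrix H). Where 5 values follow each other they are in that order. Differences between them are given as values of single libraries, with no test, and are not assigned to coculture, tumor clone or peptide.

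T cells were barcodes with at least 500 UMIs, at most 10% mitochondrial UMIs and a UMI of Cd3d, Cd3e or Cd3g. They numbered 5236, 3081, 6419, 4200 and 3938 in Ga to Hb, with median depths of 7928 to 8767.5 UMIs. A UMI of Irf4 or Nr4a1, genes switched on by T-cell receptor signaling, was present in 1322 (25.2%), 68 (2.21%), 1446 (22.5%), 86 (2.05%) and 51 (1.30%) of them. In erythroid barcodes pooled over the libraries, which should lack both markers, 8 of 178 (4.49%, interval 1.96 to 8.66%) held such a UMI. Their median depth was 8348.5 UMIs. That interval holds the shares of Gb and Ha, and the share of Hb lies below it. No background per library is given, so whether Gb, Ha and Hb exceed their own cannot be decided. The shares of Gb, Ha and Hb are therefore not read as expression of the markers. After thinning every barcode to 1500 UMIs the shares were 14.9, 0.637, 12.7, 0.447 and 0.314%, against 0 of 153 erythroid barcodes, which at 3 counts of 153 allows a share of up to 1.96%. Among the marker-positive barcodes of Ga and Gc, 767 and 809 held 4 or more such UMIs, against 10, 8 and 3 in Gb, Ha and Hb. Any 2 libraries had 2 to 14 barcode sequences in common. The marker-positive T cells of Gb include 2 barcodes over 100000 UMIs that hold 40.8% of the UMIs of that class and 350 of its 354 fibroblast-marker UMIs, and leaving out barcodes over 40000 UMIs removes 3 of the 68. Where that moves a value of Gb across 1 or by over 1.5 times, the value without them is given too.

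The 20S core is a barrel of stacked rings, in which the outer alpha rings gate the entry and the inner beta rings carry the proteolytic sites of Psmb5 (chymotrypsin-like), Psmb6 (caspase-like) and Psmb7 (trypsin-like). The 19S particle binds ubiquitin chains, removes them and feeds the unfolded protein into the core with a ring of ATPases. In cells exposed to interferon gamma, Psmb8, Psmb9 and Psmb10 replace the catalytic subunits to form the immunoproteasome, and the activator formed by Psme1 and Psme2 is induced with them. When proteasomes fall short, the factor encoded by Nfe2l1 is known to raise the subunit genes together through antioxidant response elements in their promoters. T cells that receive an antigen signal grow and synthesize protein at a high rate before dividing.

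The promoters of the catalytic genes Psmb5 and Psmb6 and of the activator genes Psme1 and Psme2 are shown because these 4 genes take different courses in the comparisons that follow. The gene bodies in GRCm38 are chr14:54614119-54618022 for Psmb5, chr11:70525367-70527858 for Psmb6, chr14:55578123-55581529 for Psme1 and chr14:55587441-55591113 for Psme2. Each line gives 250 bases before and 50 bases from the RefSeq start (GRCm38.p6), 5′ to 3′ on the gene's strand, covering chr14:54617946-54618245, minus strand; chr11:70525107-70525406, plus strand; chr14:55578244-55578543, plus strand; and chr14:55591052-55591351, minus strand. Capitals mark matches to any of the 9 motifs named in the next paragraph.
Psmb5: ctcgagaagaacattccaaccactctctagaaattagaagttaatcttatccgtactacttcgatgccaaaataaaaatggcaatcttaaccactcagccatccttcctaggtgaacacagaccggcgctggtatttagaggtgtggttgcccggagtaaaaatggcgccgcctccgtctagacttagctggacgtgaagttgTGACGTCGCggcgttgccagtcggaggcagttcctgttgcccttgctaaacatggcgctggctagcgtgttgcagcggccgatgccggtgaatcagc
Psmb6: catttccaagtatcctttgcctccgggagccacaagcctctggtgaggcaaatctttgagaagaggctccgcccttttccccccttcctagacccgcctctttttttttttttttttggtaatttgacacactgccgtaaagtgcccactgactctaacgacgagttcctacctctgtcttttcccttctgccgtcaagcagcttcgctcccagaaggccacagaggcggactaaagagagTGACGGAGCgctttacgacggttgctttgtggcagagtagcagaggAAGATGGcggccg
Psme1: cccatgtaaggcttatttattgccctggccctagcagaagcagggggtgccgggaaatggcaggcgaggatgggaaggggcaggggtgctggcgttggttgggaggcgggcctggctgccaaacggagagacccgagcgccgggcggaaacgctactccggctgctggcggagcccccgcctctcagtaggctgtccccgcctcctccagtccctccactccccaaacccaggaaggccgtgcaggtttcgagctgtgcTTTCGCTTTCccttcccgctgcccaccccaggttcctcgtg
Psme2: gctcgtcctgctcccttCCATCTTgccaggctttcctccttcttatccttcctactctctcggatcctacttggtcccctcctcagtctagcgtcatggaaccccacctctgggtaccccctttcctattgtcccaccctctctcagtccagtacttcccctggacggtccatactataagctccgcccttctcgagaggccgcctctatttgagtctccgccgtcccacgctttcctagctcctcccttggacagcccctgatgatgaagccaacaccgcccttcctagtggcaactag

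A promoter window was available for 35 of the 42 members (38 windows), and 9 motifs were searched on both strands. The antioxidant response element core TGACNNNGC was found in 6 of 38 member windows (15.8%) and in 12.4% of all 32851 windows. Its members were Psmb5, Psmb6, Psmc6, Psmd12, Psmd9 and Psme4. The ETS core CCGGAAG was in 14 member windows (36.8%) against 8.86% of all, and the YY1 core AAGATGG in 8 (21.1%) against 6.34%. The share was 2.63% against 1.87% for CGCATGCG, the core of the nuclear respiratory factor NRF1, which is not the Nfe2l1 product. The remaining shares were 36.8% against 37.4% for CCAAT, 2.63% against 8.3% for the GAS element TTCNNNGAA, 0% against 1.79% for TGACGTCA and 7.89% against 13.6% for TATAAA. The interferon-stimulated response element core, added after the Psme1 window had been read, was in 4 member windows (10.5%), those of Psmb3, Psmd4, Psmd9 and Psme1, against 3.44% of all. These matches are letters in a window and not measured binding.

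T cells with an Irf4 or Nr4a1 UMI held a larger share of 20S transcripts than T cells without one in each of the 5 libraries, by about the same factor in Ga and Gc. In Gb, Ha and Hb the share of such T cells was not above the pooled erythroid background, so their ratios are given as values only. Without a marker UMI the 14 genes of the 20S core summed to 1329, 1227, 1284, 1288 and 1268 UMIs per 1000000 (CPM) in Ga to Hb. With one they summed to 2026, 1753, 1896, 1767 and 1426 CPM. The ratio was 1.52 (95% interval 1.5 to 1.55) in Ga and 1.48 (95% interval 1.46 to 1.5) in Gc, where the intervals are exact binomial ones that cover counting error only. In Ha it was 1.37 (95% interval 1.31 to 1.44), in Hb 1.12 (95% interval 1.05 to 1.21) and in Gb 1.43 (95% interval 1.37 to 1.5). Without barcodes over 40000 UMIs the 20S ratio of Gb was 1.33 (1.248 to 1.42). Levels with a marker UMI lay above all 5 levels without one, in each library.

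The 19S particle, a sum of 17 genes, showed the same order between the classes in Ga and Gc with similar sizes. Its level was 1020.2, 1012, 1019, 1032 and 1034 CPM without and 1599.9, 1850.1, 1534, 1426 and 1106 CPM with a marker UMI in Ga to Hb. Those levels gave ratios of 1.57, 1.83, 1.51, 1.38 and 1.07. In Hb the interval included 1, at 0.985 to 1.16. The 19S ratio of Gb went from 1.83 (95% interval 1.75 to 1.91) to 1.31 (1.22 to 1.41) without its 3 deepest barcodes. Per cell the difference is larger than these CPM ratios, since marker-positive barcodes also held more UMIs, with medians of 10198 against 8410 in Ga and 9905 against 8210 in Gc. A marker UMI is detected more readily in a deeper barcode, so the split itself favors depth. The larger per-cell difference is therefore not read as a result.

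**Figure D1:**
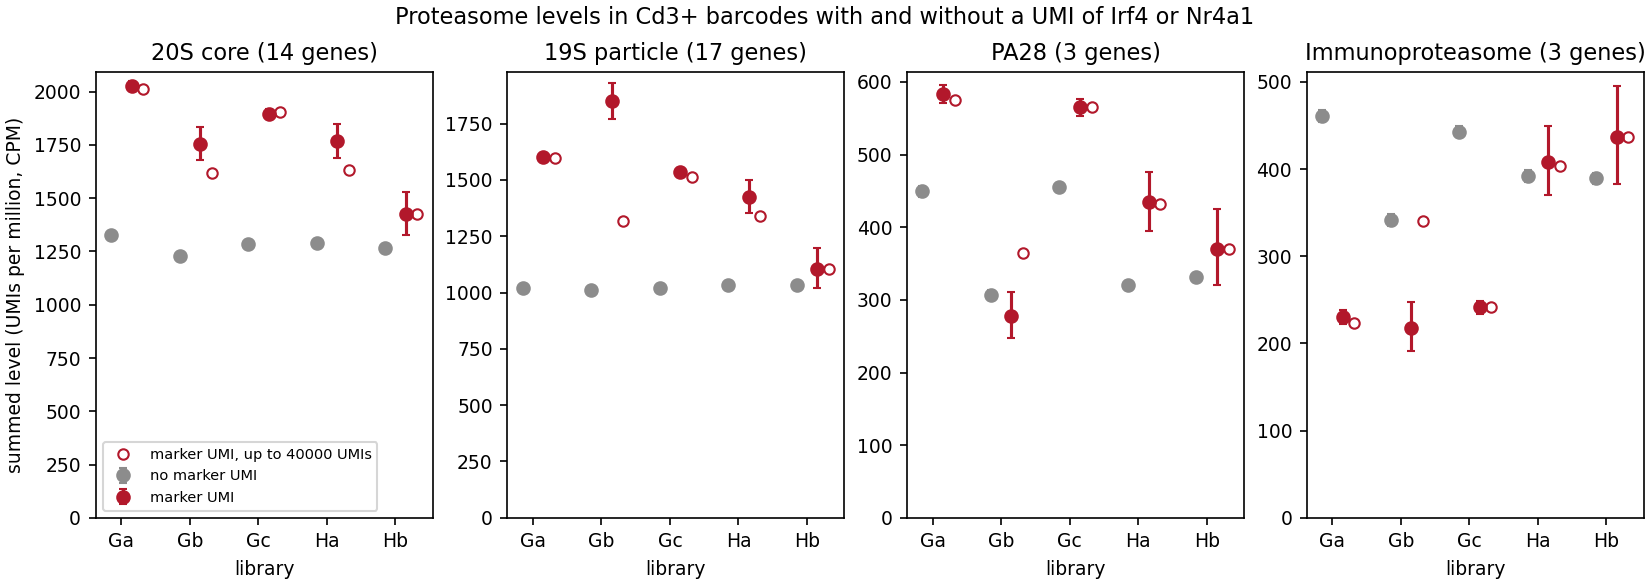
Summed levels in CPM of the 20S core, 19S particle, PA28 and immunoproteasome genes (vertical axes from 0) in each of 5 libraries, for T-cell barcodes without (grey) and with (red) a UMI of Irf4 or Nr4a1. Bars are 95% Poisson intervals, and open circles leave out barcodes over 40000 UMIs. In Ga and Gc the red points lie above the grey ones for the constitutive parts and below them for the immunoproteasome, and the open circles of Gb lie apart from its filled ones.

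PA28 behaved by gene. The 3 genes summed to 449, 307, 455, 320.2 and 331 CPM without and 583, 278, 565, 434 and 369.8 CPM with a marker UMI, with ratios of 1.30, 0.904, 1.24, 1.36 and 1.12. Without barcodes over 40000 UMIs the PA28 ratio of Gb was 1.18 (1.03 to 1.35). Psme3, whose product forms a nuclear activator of its own, had 20.7, 18.95, 19.2, 22.6 and 19.3 CPM without and 57.3, 49.2, 47.6, 36.6 and 22.2 CPM with a marker UMI. Its ratio of 2.77 (95% interval 2.50 to 3.06) in Ga was the highest of the 40 members compared there, and in Gc it was 2.48 (95% interval 2.25 to 2.74), again the highest. Psme3 in Gb went from 2.60 to 1.28 (0.71 to 2.13) without the deepest barcodes. Psme1, a subunit of the interferon-inducible activator, had 279, 185, 285, 197 and 204 CPM without and 319, 142, 307, 243 and 224 CPM with a marker UMI, and its ratios of 1.14 in Ga and 1.08 in Gc were among the lowest of the members. Psme2, its partner subunit, stood at 149, 103, 151, 101 and 108 CPM without and 207, 86.2, 210.0, 155 and 124 CPM with a marker UMI. In Gb both activator genes were below 1 with all barcodes (0.768 and 0.837) and above it without the 3 deepest (1.17 and 1.19), so no direction is read there. Psme4, the PA200 activator used in spermatogenesis and DNA repair, differed little in Ga and Gc, with 146 and 153 CPM without and 151 and 158 CPM with a marker UMI.

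The immunoproteasome went the other way in Ga and Gc. Psmb8, Psmb9 and Psmb10 summed to 461, 341, 443, 392 and 389 CPM without and 230.0, 218, 241, 408 and 436 CPM with a marker UMI in Ga to Hb. The ratios were 0.499 (95% interval 0.481 to 0.518) in Ga and 0.545 (95% interval 0.527 to 0.564) in Gc, and the intervals of Ha and Hb included 1. Psmb8, which replaces Psmb5, had ratios of 0.49, 0.623, 0.529, 1.05 and 1.13. Psmb9, which replaces Psmb6, had 0.537, 0.526, 0.599, 0.967 and 1.14, and Psmb10, which replaces Psmb7, had 0.486, 0.86, 0.543, 1.09 and 1.05. In Gb the sum was 0.639 with all barcodes and 0.992 (0.862 to 1.14) without the 3 deepest, so that the lower value there rests on those barcodes. Psmb8, Psmb9 and Psmb10 were then at 1.01, 0.870 and 1.04 in Gb. Psme2b was lower in the same 2 libraries, at 39.5 and 28.9 CPM without and 17.6 and 14.8 CPM with a marker UMI. It lies within 9930111J21Rik1 and Gm12185 on chromosome 11, so reads of these genes and of Psme2 could not be told apart from its own.

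By single gene, 19 of 40 members compared in Ga were at least 1.5-fold higher with a marker UMI, against 18.5% of all genes compared there. A gene was compared where at least 20 UMIs were expected in the smaller class. In Gc 18 of 40 passed that fold against 19.2% of all genes. In Gb 20 of 39 did against 19.7%, in Ha 12 of 38 against 10.6%, and in Hb 1 of 32 against 4.81%. Without barcodes over 40000 UMIs, Gb had 3 of 35 members past the fold, against 7.18% of all genes compared, and Ha had 9 of 37 against 7.62%. At least 1.5-fold lower were 1 of 40 in Ga and 1 of 40 in Gc, in both cases Psme2b, where 20.7% and 17% of all genes were. The corresponding counts were 1 of 39 in Gb (Psme2b, at 0.645 and without the 3 deepest barcodes at 0.874, 18.9% of all genes), 1 of 38 in Ha (Psmd5, 8.03%) and 0 of 32 in Hb (5.31%). The median member had a log2 ratio of 0.57, 0.66, 0.56, 0.49 and 0.15 in Ga to Hb, where the median of all genes was -0.05, -0.01, -0.01, 0.02 and 0.00. The members' median in Gb was 0.37 without barcodes over 40000 UMIs. Of the 32 members compared in all 5 libraries, 17 were above 1 in each with all barcodes. The share of all genes above 1 in each library was not computed, so this count has no background. Psmc1, 1 of these 17, was at 1.82 in Gb with all barcodes and at 0.906 without those over 40000 UMIs.

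**Figure D2:**
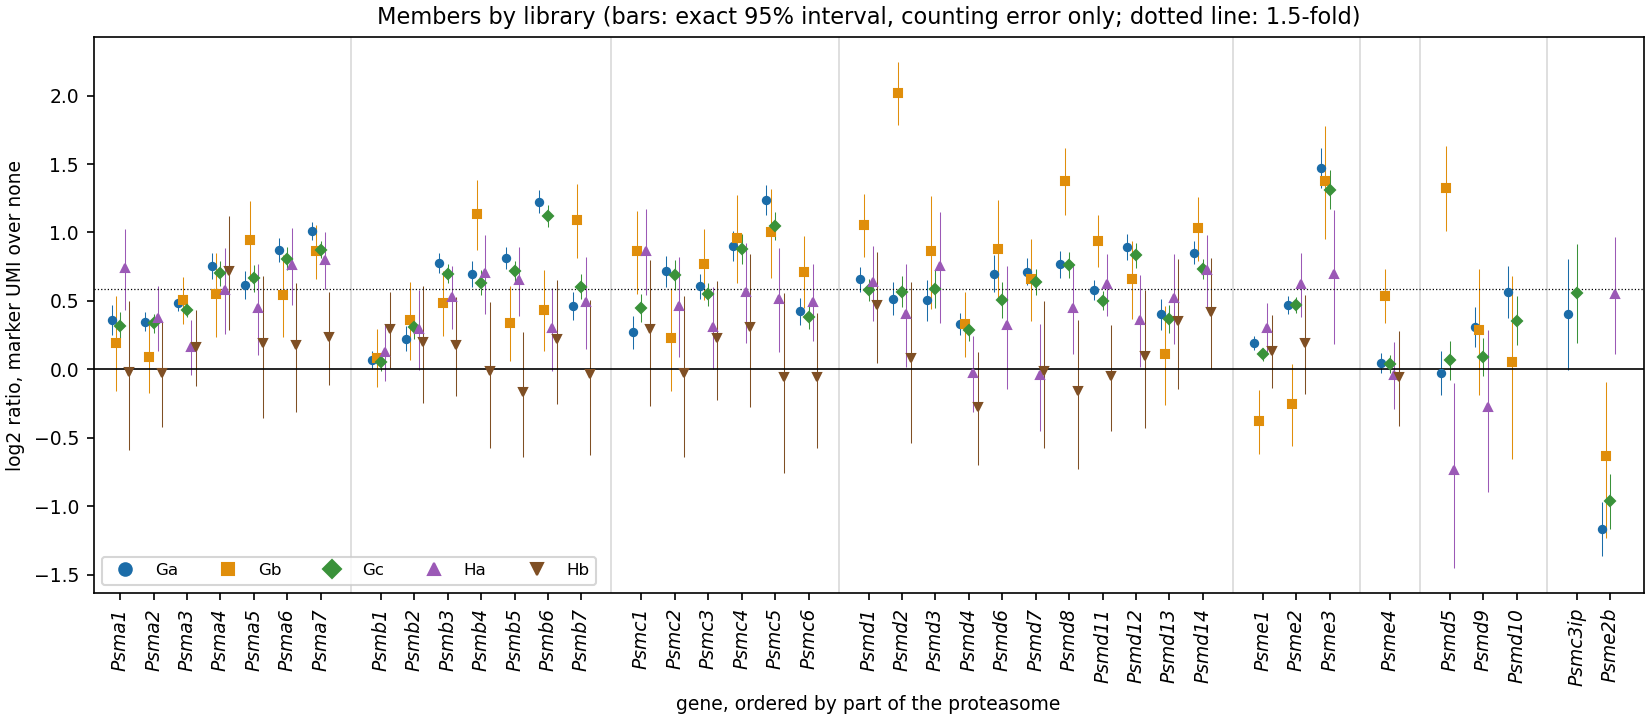
Log2 ratio of the level with to the level without an Irf4 or Nr4a1 UMI (vertical axis) for each member compared, ordered by part of the proteasome, with 1 symbol per library and exact 95% intervals. Psme3, Psmc5 and Psmb6 are the highest members in Ga, Psmb1 and Psme4 lie near 0 in Ga and Gc, and Psme2b lies below 0 in Ga, Gb and Gc.

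Within the 20S core, whose subunits take equal places in the particle, the transcript ratios were unequal. All 14 genes were above 1 in Ga, and 8 of them passed 1.5-fold. Psmb6 had the highest ratio of the core in Ga and Gc, with 67.1 and 67.6 CPM without and 157 and 147 CPM with a marker UMI. In Gb, Ha and Hb its ratios were 1.35, 1.23 and 1.16. Psmb5 had 83.0, 81.3, 78.0, 84.8 and 86.9 CPM without and 146, 103, 128, 133 and 77.7 CPM with a marker UMI, a ratio of 1.76 (95% interval 1.66 to 1.86) in Ga and 1.64 (95% interval 1.55 to 1.74) in Gc. Psmb7, the third catalytic subunit, had 58.8, 51.2, 57.6, 54.0 and 53.0 CPM without and 81.0, 109, 87.6, 76.1 and 51.8 CPM with a marker UMI. The catalytic genes thus ranked Psmb6, Psmb5 and Psmb7 in Ga and in Gc, with the intervals of Psmb5 (1.55 to 1.74) and Psmb7 (1.42 to 1.62) overlapping in Gc.

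Among the noncatalytic beta subunits, Psmb4, the last beta subunit to join the half-barrel, had ratios of 1.62, 2.19, 1.55, 1.63 and 0.989 in Ga to Hb. With all barcodes this was the highest median of its ring. In Gb it was 1.253 (0.902 to 1.70) without the 3 deepest barcodes. In Ga and Gc, Psmb4 lay below Psmb6, Psmb5 and the noncatalytic Psmb3, the last at 1.71 and 1.62. Psmb1 had the lowest median, with 176, 162, 168, 177 and 170.4 CPM without and 185, 172, 175, 194 and 209 CPM with a marker UMI. Its ratios lay between 1.04 and 1.23 in the 5 libraries. In the alpha ring Psma7 had the highest median, with 124, 112, 121, 112 and 116 CPM without and 249, 203, 221, 195 and 137 CPM with a marker UMI. Psma1 had the lowest, with ratios of 1.28, 1.15, 1.247, 1.67 and 0.988. Both rings as sums gave 1.56 (alpha) and 1.49 (beta) in Ga and 1.49 and 1.46 in Gc.

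All 17 genes of the 19S particle were above 1 in Ga and Gc, and 10 and 8 of them passed 1.5-fold. The ATPases, which unfold the substrate, summed to ratios of 1.61, 1.69, 1.55, 1.44 and 1.09, and the other subunits to 1.55, 1.89, 1.49, 1.35 and 1.06. Without the deepest barcodes these sums were 1.26 and 1.34 in Gb. Psmc5 led the ATPases, at 41.1, 39.1, 39.7, 41.1 and 40.4 CPM without and 97.0, 78.3, 82.0, 58.8 and 38.8 CPM with a marker UMI. Psmc6 had the lowest median of that ring with all barcodes, with ratios of 1.34, 1.64, 1.30, 1.41 and 0.96. Psmc1 was lower than Psmc6 in Ga, at 1.21, and higher in Gc, at 1.36. In Gb without the 3 deepest barcodes Psmc1 was at 0.906 and Psmc6 at 1.42. Of the lid and base subunits, Psmd8 had the highest median, with ratios of 1.70, 2.60, 1.70, 1.36 and 0.897, and 1.69 in Gb without the deepest barcodes. Psmd14, the lid enzyme that cuts ubiquitin chains off the substrate, had 1.81, 2.04, 1.66, 1.65 and 1.34, and Psmd4, a ubiquitin receptor, had the lowest median, with 1.26, 1.26, 1.22, 0.983 and 0.827. Psmd2, the largest single value in Gb at 4.05, was 1.26 (0.851 to 1.80) there without the 3 deepest barcodes. The chaperones Psmd5, Psmd9 and Psmd10, which hold 19S intermediates and leave the finished particle, had 0.981 and 1.05, 1.24 and 1.06 and 1.48 and 1.28 in Ga and Gc. The 6 members whose windows held the antioxidant response element core had ratios in Ga of 1.03 (Psme4), 1.24 (Psmd9), 1.34 (Psmc6), 1.76 (Psmb5), 1.85 (Psmd12) and 2.33 (Psmb6). Whether that motif has a part in the ratios was not tested.

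Levels followed the number of marker UMIs in Ga and Gc. In barcodes with 0, 1, 2 to 3 and 4 or more such UMIs, the 20S core stood at 1329, 1461, 1866 and 2285 CPM in Ga and 1284, 1349, 1561 and 2178 CPM in Gc. For the 19S particle the same classes gave 1020.2, 1152, 1421 and 1813 CPM in Ga and 1019, 1091, 1183 and 1773 CPM in Gc. PA28 gave 449, 472, 544 and 636 CPM in Ga and 455, 479, 553 and 603 CPM in Gc. Each of these was higher in every further class, while the immunoproteasome sum was lower in every further class, at 461, 421, 306 and 139 CPM in Ga and 443, 414, 338 and 154 CPM in Gc. At 4 or more UMIs the constitutive core of Ga was thus at 2285 CPM and the immunoproteasome at 139 CPM. The same classes had median depths of 8410, 8947, 8970 and 11235 UMIs in Ga and 8210, 8801, 8524.5 and 10861 UMIs in Gc. The part of depth in this order was not tested. In Gb, Ha and Hb the classes above 1 UMI held 3 to 10 barcodes each, so no order is read there.

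**Figure D3:**
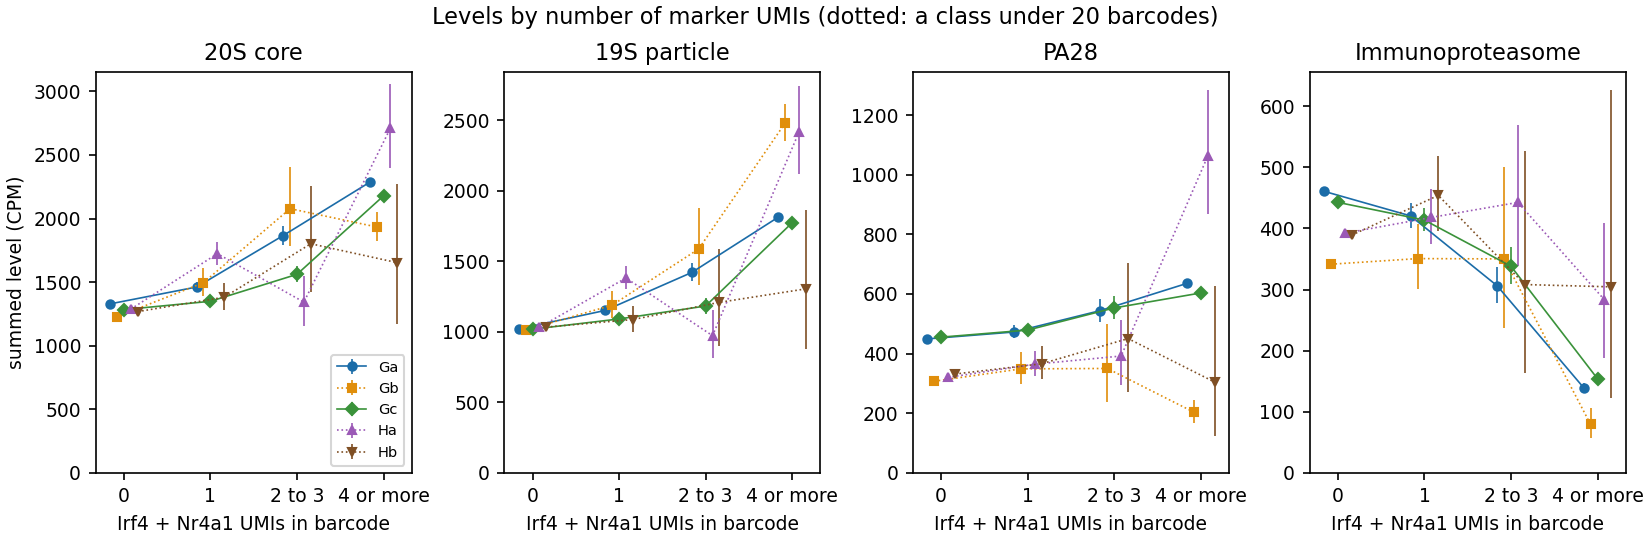
Summed levels in CPM (vertical axes from 0) by the number of Irf4 and Nr4a1 UMIs in a barcode, per library, with 95% Poisson intervals. Solid lines (Ga, Gc) climb for 20S, 19S and PA28 and descend for the immunoproteasome, and dotted lines are libraries with a class under 20 barcodes.

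Markers of other cell types and depth differed between the marker classes, and beyond the values given here their part in the result was not tested. Myeloid-marker genes (6 of 6 detected) stood at 167 CPM with and 36.3 without a marker UMI in Ga, and at 153 and 51.5 in Gc. In Gb, Ha and Hb they stood at 736, 211 and 581 CPM with and 35.6, 72.1 and 128 CPM without a marker UMI, with S100a8 and S100a9 at 0 in all 3. Without barcodes over 40000 UMIs the marker-positive myeloid level was 15.4, 3.20, 7.51, 23.1 and 581 CPM in Ga to Hb. Erythroid genes were at 49.2, 81.8, 803, 9907 and 42.5 CPM with and 2040.5, 845, 1476, 476 and 1140 CPM without a marker UMI in Ga to Hb. All 5 were detected in each class, except Alas2 with a marker UMI in Hb. B-cell genes were at 96.9 against 166 CPM in Ga and 259 against 152 in Gc, and in Gb, Ha and Hb at 126 against 165, 749.5 against 188 and 287 against 192. Proliferation genes were at 592 against 15.05 CPM in Gb, where T-cell genes were at 6950.1 against 12098 CPM, and without barcodes over 40000 UMIs the marker-positive proliferation level of Gb was 7.99 CPM. Fibroblast genes were at 2.12 against 2.18 CPM in Ga, 311 against 42.2 in Gb and 11.1 against 1.66 in Gc, and all 6 were at 0 with a marker UMI in Ha. The marker-positive fibroblast level without barcodes over 40000 UMIs was 6.39 CPM in Gb and 2.95 CPM in Gc. A further setting left out barcodes holding 2 or more UMIs of the B-cell, myeloid, fibroblast and erythroid lists together. Proliferation genes were not part of that filter. The 20S ratio was then 1.61 (1.58 to 1.64) in Ga and 1.58 (1.55 to 1.61) in Gc, and the immunoproteasome ratio 0.375 and 0.464. In Gb, Ha and Hb this left 32, 37 and 19 marker-positive barcodes and 20S ratios of 1.27, 1.20 and 1.20. Among barcodes without a marker UMI, the 20S level was 1178, 1078, 1139, 1145 and 1193 CPM in the shallowest decile of Ga to Hb. In the deepest decile it was 1346, 1336, 1294, 1438 and 1327 CPM. Weighted to equal depth deciles, the 20S ratio was 1.52 in Ga and 1.47 in Gc, and with every barcode thinned to 1500 UMIs it was 1.56 and 1.54. The median of the 5 libraries went from 1.43 to 1.27 with depth deciles matched.

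The comparison was repeated within lineages of T cells. In barcodes with Cd4 and without Trdc, the 20S ratio was 1.41, 1.37, 1.36, 1.31 and 1.18 and the 19S ratio 1.45, 1.31, 1.37, 1.34 and 0.965 in Ga to Hb. Trdc, the constant gene of the gamma-delta receptor, marks cells other than the CD4 cells that the selection aimed at, and 329 to 683 barcodes per library held it without Cd4. Within those, the 20S ratio of marker classes was 1.40, 1.07, 1.34, 1.43 and 1.02, with intervals that included 1 in Gb and Hb. Against Cd4-positive barcodes, 0 of 39 or 40 members compared were at least 1.5-fold lower in Trdc-positive ones, in each library. Of all genes compared, 5.14, 6.29, 5.75, 6.06 and 5.36% were at least 1.5-fold lower there in Ga to Hb. The 20S level was 1430.1, 1305, 1324, 1318 and 1288 CPM in Trdc-positive and 1433, 1206, 1367, 1260.3 and 1248 CPM in Cd4-positive barcodes.

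Genes that build or serve the proteasome were read from lists grouped by function, and their counts are set against the 18.5% of all genes that passed 1.5-fold in Ga and the 19.2% in Gc. Of 6 assembly genes, 5 passed in Ga and 5 in Gc, while 2 of the 4 compared passed in Gb (19.7% of all genes) and 1 of 3 in Ha (10.6%). Akirin2, which brings proteasomes into the nucleus, did not pass in Ga or Gc (1.22 and 1.14). Pomp, the chaperone that matures the 20S core, had 68.2, 59.6, 64.9, 68.6 and 65.0 CPM without and 156, 160.0, 143, 87.7 and 102 CPM with a marker UMI, and in Hb it was the 1 of 2 assembly genes compared that passed 1.5-fold. Its ratio in Gb was 2.69 with all barcodes and 1.30 (0.956 to 1.74) without the 3 deepest. Both 19S subunits outside the symbol rule passed in Ga and Gc, Sem1 with ratios of 1.62 and 1.58 and the ubiquitin receptor Adrm1 with 1.86 and 1.69. Of 7 enzymes and inhibitors bound to the particle, 2 passed in Ga and in Gc, and these were the deubiquitinase Usp14 (1.76 and 1.61) and Txnl1 (1.5 and 1.59), while the other 19S deubiquitinase Uchl5 had 1.03 and 0.988. None of 5 ubiquitin and activating-enzyme genes passed in Ga or Gc. Uba1, the main activating enzyme, had 1.34 and 1.37. Ubqln2, one of the shuttle genes, which carry ubiquitylated proteins to the particle, had the lowest ratios of that list in Ga and Gc, with 0.722 and 0.641.

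The 9 genes of the transcription-control list had unlike ratios, and 2 of them (22.2%) passed 1.5-fold in Ga and in Gc, a share near that of all genes (18.5% and 19.2%). Nfe2l1 had 40.6, 35.5, 43.3, 39.2 and 38.4 CPM without and 94.6, 74.7, 101, 57.8 and 37.0 CPM with a marker UMI in Ga to Hb. Mafg, which encodes a small partner of that factor, had ratios of 1.70 and 1.51 in Ga and Gc. Ngly1 and Ddi2, whose enzymes process the Nfe2l1 protein into its active form, had 0.622 and 0.65 and 0.941 and 0.901. Nfe2l2, a related factor, had 0.705 and 0.774, and Keap1, which targets Nfe2l2 for degradation, had 0.733 and 0.796. Vcp, the ATPase that extracts proteins for degradation, had 1.30 and 1.33. Maf had the highest median of the list with unlike ratios of 0.692, 3.01, 1.06, 3.16 and 3.32, and in Gb, Ha and Hb these rest on 68, 86 and 51 barcodes.

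Over all T cells of a library, the 20S and 19S genes stood at close levels in the 5 libraries and PA28 did not. In all T cells the 20S core stood at 1539, 1250.2, 1455, 1301 and 1270.4 CPM in Ga to Hb, a span of 0.30 on the log2 scale. For the 19S particle the levels were 1195, 1049, 1163, 1043 and 1035 CPM, a span of 0.21. PA28 had 489.8, 306, 486, 323 and 332 CPM, a span of 0.68. Of 40 members compared, 4 differed by at least 1.5-fold between the highest and lowest library, namely Psme1, Psme2, Psme3 and Psme2b, against 26.5% of all 13644 genes compared. The median member spanned 0.30 on the log2 scale and the median gene 0.36. No gene of the 20S core or of the 19S particle passed that fold.

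In T cells without a marker UMI the 20S and 19S levels lay closer still, and the inducible activator did not. The 19S level was 1020.2, 1012, 1019, 1032 and 1034 CPM, a span of 0.03 on the log2 scale, and the 20S level 1329, 1227, 1284, 1288 and 1268 CPM, a span of 0.11. Psme1 stood at 279, 185, 285, 197 and 204 CPM and Psme2 at 149, 103, 151, 101 and 108 CPM in Ga to Hb. Each was at its higher levels in Ga and Gc, and the highest library was 1.54-fold over the lowest for Psme1 and 1.5-fold for Psme2. These were 2 of 40 members past 1.5-fold, against 17.9% of all genes compared in these barcodes. Psme3 did not follow them, at 20.7, 18.95, 19.2, 22.6 and 19.3 CPM. Of the immunoproteasome genes, Psmb9 had 94.8, 56.8, 89.4, 65.8 and 67.9 CPM and Psmb10 73.1, 46.0, 74.1, 53.1 and 54.7 CPM, and both were likewise higher in Ga and Gc, whereas Psmb8 had 293, 239, 279, 273 and 267 CPM with a span of 1.23-fold. With 1 library behind each value, library and condition cannot be told apart in these levels.

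**Figure D4:**
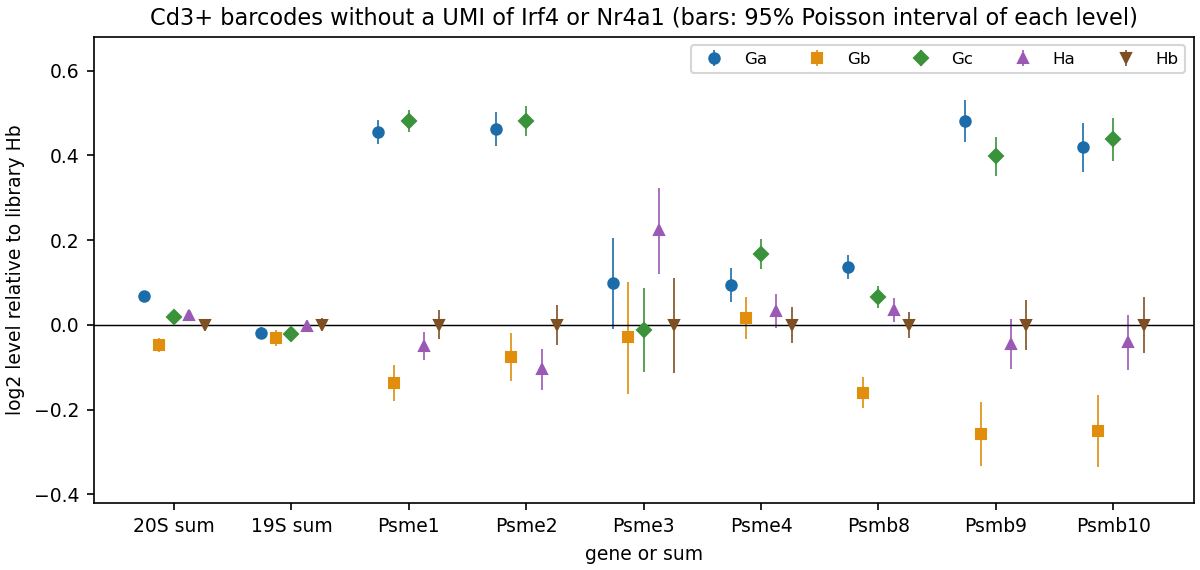
Levels in T cells without an Irf4 or Nr4a1 UMI, as log2 relative to library Hb (vertical axis), for the 20S and 19S sums, the PA28 and PA200 genes and the immunoproteasome genes, with 95% Poisson intervals of each level. The 19S points of the 5 libraries lie within 0.03 of each other, while Psme1, Psme2, Psmb9 and Psmb10 are higher in Ga and Gc than in the other 3 libraries.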

How the data were processed

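The authors deposited 2 aggregated matrices of raw UMI counts. Per the submitters' processing notes, Cell Ranger 6.0.0 and mm10 were used, while the file headers name version 7.1.0. Any depth equalization in the aggregation and any counting of introns are not given in the sources used here. Levels are summed counts divided by all UMIs of the same barcodes, per 1000000 (CPM). Levels have exact Poisson intervals, ratios exact conditional binomial ones and shares Clopper-Pearson ones, at 95%, a count of 0 has a limit of 3 counts, and all cover counting error only. With 1 library per suffix and no map to conditions there is no test across libraries and no p-value. Genes were compared where 20 or more UMIs were expected in each class, and called at 1.5-fold. No doublet caller was run, and alternatives leave out deep barcodes and those with 2 UMIs of other cell types. Psmb5, Psmb6, Psmb7, PA28, PA200 and the genes with the highest and lowest median ratio of each other part or list are named by rule. Psmd14, Psmd2, Psmb3, Psmc1, Nfe2l1, Mafg, Ddi2, Nfe2l2, Keap1, Vcp, Adrm1, Txnl1, Psmd12 and the chaperones were chosen after their values were seen. Some genes that the rule names are not reported here. Members and lists were chosen with earlier results of these data known. All 42 identifiers were found in GENCODE M21 (GRCm38), and 20 members overlap another gene, so their reads may be shared. Ratios and intervals were tested on simulated data (Python 3, numpy and scipy).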

Additional observations from a re-analysis of the deposited data

How the results depend on the processing

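Over 25 other settings, 131 of 211 recomputed medians, spans and counts stayed near those reported and 80 moved. A median counted as moved outside the 95% interval of the library that gave it, a span outside its own interval and a count beyond 1.5 times. No median ratio crossed 1. The settings without barcodes over 40000 UMIs were chosen after seeing the data. The reported medians over 5 libraries were 1.43 (20S), 1.51 (19S) and 1.24 (PA28), the spans 0.30, 0.21 and 0.68 on the log2 scale, and the members past 1.5-fold 19, 20, 18, 12 and 1 in Ga to Hb. Of the ratios by library whose reported interval excluded 1, 34 values crossed 1, and 0 of these were in Ga or Gc. Of those whose interval included 1, 128 did, 9 of them in Ga or Gc (Psme4 in both and Psmb1 in Gc). The immunoproteasome ratios of Ha (1.04) and Hb (1.12) were of the latter kind and had their lowest values, 0.584 and 0.576, after thinning. Marker-positive classes held 51 to 86 barcodes and 540819 to 1137250 UMIs in Gb, Ha and Hb, against 14633183 and 16603168 UMIs in Ga and Gc, and thinning left 0 members to compare in those 3. The cause of the other moves was not tested. With 100 expected UMIs required, the members past the fold numbered 2 (Gb), 3 (Ha) and 0 (Hb). In Cd4-positive, Trdc-negative barcodes, the median 20S ratio was 1.36, the 20S span was 0.25, the median 19S ratio was 1.34 and the 19S span was 0.15, and the members past the fold numbered 4 (Gb), 11 (Gc) and 0 (Hb). There, in Gb the ratios of immunoproteasome (1.14), Psme1 (1.15) and Psmb8 (1.22) crossed 1. With Egr2 or Nr4a3 as markers, the median 20S ratio was 1.13, the median 19S ratio was 1.18 and the median PA28 ratio was 1.31. That 20S median is the value of Ha, whereas the reported 20S median of 1.43 is the value of Gb. With these markers, the members past the fold numbered 18 (Ga), 1 (Gb), 18 (Gc), 0 (Ha) and 1 (Hb). There, in Gb the ratios of Psmb5 (0.721), Psmb6 (0.79), Psme1 (1.15), Psma7 (0.994), Psmb4 (0.98) and Psmc6 (0.967) and in Ha the ratios of Psmb7 (0.992), Psme3 (0.668), Psma7 (0.957), Psma1 (0.984) and Psmc5 (0.973) crossed 1. With Irf4 alone, the median 20S ratio was 1.32, the median 19S ratio was 1.36 and the median PA28 ratio was 1.27, and the members past the fold numbered 7 (Gb), 4 (Ha) and 3 (Hb). There, in Gb the ratios of immunoproteasome (1.05), Psmb6 (0.893), Psme1 (1.22), Psmb8 (1.01) and Psmb9 (1.04) crossed 1. With Nr4a1 alone, the members past the fold numbered 0 (Hb). With 2 marker UMIs required, the median 20S ratio was 1.59, the median 19S ratio was 1.67 and the median PA28 ratio was 1.31, and the members past the fold numbered 7 (Ha) and 0 (Hb). At a lower fold (5/4), the members past the fold numbered 32 (Ga), 31 (Gc), 27 (Ha) and 4 (Hb). At a fold of 2, the members past the fold numbered 4 (Ga), 9 (Gb), 3 (Gc), 0 (Ha) and 0 (Hb). Matched by depth deciles, the median 20S ratio was 1.27 and the median PA28 ratio was 1.28. As means of per-cell values, the median 20S ratio was 1.30, the median 19S ratio was 1.34, the 19S span was 0.19 and the median PA28 ratio was 1.20, and the members past the fold numbered 8 (Gb) and 4 (Ha). There, in Gb the ratio of Psme1 (1.14) and in Ha the ratio of Psme3 (0.979) crossed 1. With median-of-ratios scaling, the median 20S ratio was 1.35 and the median 19S ratio was 1.48. With no filter on expected UMIs, the members past the fold numbered 2 (Hb). Thinned to 1500 UMIs, the median 20S ratio was 1.54 and the 20S span was 0.28, and the members past the fold numbered 0 (Gb), 0 (Ha) and 0 (Hb). There, in Ha the ratios of Psmb5 (0.425), Psmb7 (0) and Psmc5 (0) and in Hb the ratio of Psmb1 (0.635) and in Gb the ratios of Psmc5 (0.958) and Psmc6 (0.476) crossed 1. Without barcodes over 40000 UMIs, the median 20S ratio was 1.33, the median 19S ratio was 1.31 and the 19S span was 0.23, and the members past the fold numbered 3 (Gb). There, in Gb the ratios of Psme1 (1.17) and Psmb8 (1.01) crossed 1. Without barcodes holding 2 UMIs of other cell types, the median 20S ratio was 1.27, the 20S span was 0.44, the median 19S ratio was 1.36, the 19S span was 0.31 and the PA28 span was 0.77, and the members past the fold numbered 2 (Gb) and 2 (Ha). There, in Gb the ratios of Psme1 (1.07) and Psmb8 (1.04) crossed 1. Without the 5% deepest barcodes, the median 20S ratio was 1.252 and the median 19S ratio was 1.247, and the members past the fold numbered 2 (Gb), 5 (Ha) and 0 (Hb). There, in Ha the ratios of Psmb7 (0.995) and Psme3 (0.685) and in Gb the ratio of Psme1 (1.24) crossed 1. Leaving out each library in turn gave medians of 1.40 to 1.45 (20S), 1.44 to 1.54 (19S) and 1.18 to 1.27 (PA28, 1.21 without Gc), and spans of 0.22 to 0.30, 0.17 to 0.21 and 0.60 to 0.68. No paired analysis was possible because no library could be tied to a labelled sample.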
